A study of Mus musculus with 6 samples.

Results

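The 9 genes described here encode mitochondrial enzymes of the tricarboxylic acid cycle: Cs, Idh2, Idh3a, Idh3b, Ogdh, Sucla2, Suclg1, Fh1 and Mdh2. They were taken by name, with earlier results of these data known, and all 9 were found among the 19937 genes measured. Each was represented by its single probe set with 1 gene symbol. The RNA came from whole mouse kidneys on 6 arrays, 3 from littermates of normal genotype and 3 from NICD1 mice of genotype Pax8rtTA TREICNotch1. In these mice the Pax8 promoter drives the tetracycline-controlled activator rtTA in tubule epithelial cells, and rtTA switches on a transgene for the intracellular domain of Notch1, the active part of the receptor. The labels describe the controls as wild-type littermates and give no age, sex, inducing agent or time of induction for either group, so an effect of rtTA or of an inducer alone cannot be told apart from that of the Notch1 domain. Nothing in the labels says that the numbered samples of a group came from separate mice, and the p-values measure only the spread between these samples.

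The cycle oxidises the acetyl group of acetyl-CoA to carbon dioxide in the mitochondrial matrix and passes the electrons to the respiratory chain as NADH and, through succinate dehydrogenase, as reduced ubiquinone. Citrate synthase starts it, the isocitrate dehydrogenases act after it, and oxoglutarate dehydrogenase, succinyl-CoA ligase, succinate dehydrogenase, fumarase and malate dehydrogenase return it to oxaloacetate. The proximal tubule depends on this pathway for its transport work, being rich in mitochondria and poor in glycolysis. Fumarase is also known in people as the enzyme whose inherited loss predisposes to a form of kidney cancer.

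All 9 genes were lower in NICD1 by the deposited values, though the calls of Cs and Idh2 were lost under quantile normalization. The upstream sequences of 8 of the 9 were searched for 6 short motifs in the 250 bases before the transcription start. The search used the RefSeq promoter table, build GRCm38.p6, on both strands. Idh3a was not in that table. Shown here, 5′ to 3′, are the upstream sequences of Sucla2 and Fh1, the members with the largest falls, and of Cs and Suclg1, the members that held the Rbpj letters. Capitals mark every match to any of the 6 motifs.
Sucla2, chr14:73552536-73552785, plus strand: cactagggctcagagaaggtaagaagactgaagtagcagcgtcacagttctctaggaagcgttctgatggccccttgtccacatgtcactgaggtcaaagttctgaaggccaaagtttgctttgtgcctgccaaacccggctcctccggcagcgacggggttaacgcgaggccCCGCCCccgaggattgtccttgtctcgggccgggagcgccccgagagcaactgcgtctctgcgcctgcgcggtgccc
Fh1, chr1:175625636-175625885, minus strand: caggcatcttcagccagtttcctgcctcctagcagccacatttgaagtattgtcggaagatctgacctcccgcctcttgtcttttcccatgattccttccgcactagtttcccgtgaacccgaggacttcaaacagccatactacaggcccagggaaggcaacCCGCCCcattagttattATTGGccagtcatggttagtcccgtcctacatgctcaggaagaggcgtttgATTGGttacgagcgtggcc
Cs, chr10:128337477-128337726, plus strand: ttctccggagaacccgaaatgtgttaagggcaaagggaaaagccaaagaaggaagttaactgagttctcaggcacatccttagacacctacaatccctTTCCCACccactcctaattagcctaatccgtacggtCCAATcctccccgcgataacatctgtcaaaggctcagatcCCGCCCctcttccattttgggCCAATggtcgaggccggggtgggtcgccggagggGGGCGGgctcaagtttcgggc
Suclg1, chr6:73248255-73248504, plus strand: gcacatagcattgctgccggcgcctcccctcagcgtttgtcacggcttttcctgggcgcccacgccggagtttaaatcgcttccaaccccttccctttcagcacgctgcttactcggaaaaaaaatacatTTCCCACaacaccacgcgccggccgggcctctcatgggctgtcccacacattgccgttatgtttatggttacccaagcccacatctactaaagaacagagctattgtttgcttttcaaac
The letters GTGGGAA, the core recognised by the Notch effector Rbpj, were found upstream of 2 of the 8 genes, Cs and Suclg1. In both they lay on the reverse strand (TTCCCAC). They were in 2 of the 13 member windows and in 5.42% of the 32851 windows of all genes. The CCAAT box (CCAAT) was found upstream of 5 members, Cs, Fh1, Idh2, Idh3b and Ogdh. It was in 8 of the 13 member windows, against 33.8% of all windows. The GC box (GGGCGG) was found upstream of 6, Cs, Fh1, Idh2, Mdh2, Ogdh and Sucla2. It was in 7 of the 13 member windows, against 32.7% of all windows. The letters GCATGCG, from the motif of nuclear respiratory factor 1, were found upstream of 1 member, Ogdh. They were in 2 of the 13 member windows and in 3.02% of all windows. Ogdh had 6 overlapping or neighbouring windows and counted once as a member if any window held the letters. These 6 weigh on the window counts, the motifs were chosen after the sequences were seen, and no enrichment was tested. No member window held AAGGTCA (estrogen-related receptors, 4.08% of all windows) or CCGGAAG (ETS family, 6.91%), which says only that these letters are not there. A match describes letters in the window and is not evidence of a site in use.

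All 9 enzymes were lower in NICD1 kidneys by the deposited values, with differences from -1.50 to -0.34 on the log2 scale. All passed at adjusted p under 0.05, where 14.9% of the genes tested were called lower and 17.8% higher. Their median difference was -0.89, against 0.01 over all genes. The levels are log2 RMA values, differences are NICD1 minus control, SD is over n = 3 arrays, and adjusted p-values come from limma over all 19937 genes. In all 9 the 3 NICD1 arrays lay below the 3 controls, as they did for 19.7% of all genes, and above them for 23.7%. A fall of at least 2-fold that passed the test was measured for Sucla2, Fh1 and Ogdh, or 3 of 9, against 5.3% of all genes. The members are bright on these arrays, and of 844 genes whose mean level lay in their range, 8.59 to 10.39, 47.4% were called lower and 25.8% higher. The median difference of these 844 genes was -0.23. RNA of a whole kidney does not separate fewer cells of a type from less RNA per cell.

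**Figure D1:**
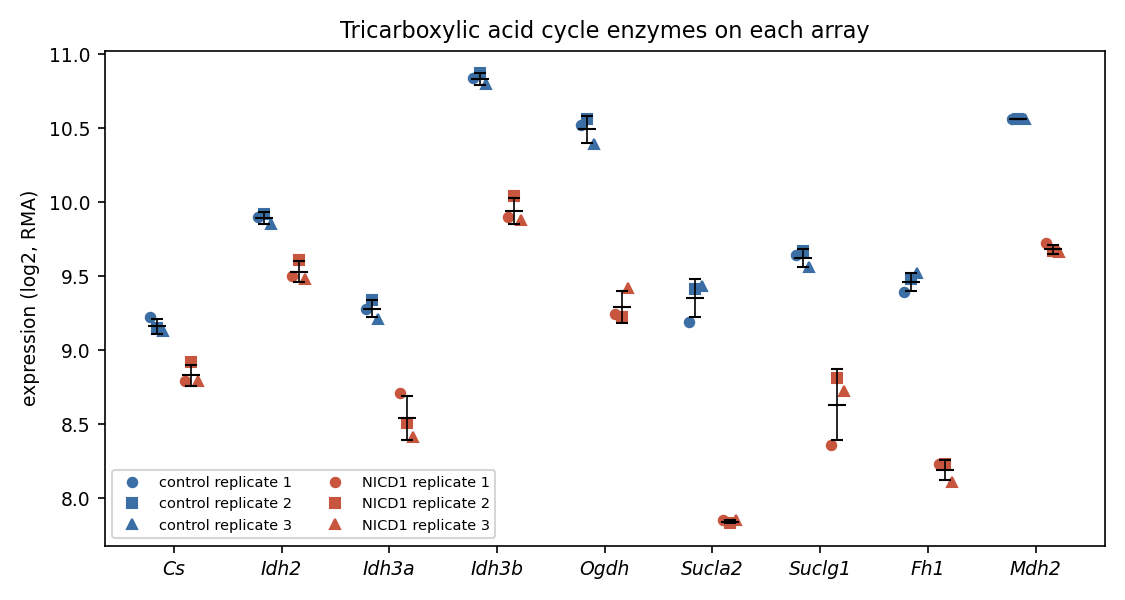
Log2 RMA expression (vertical axis) of the 9 cycle enzymes (horizontal axis) on each array, with marker shape for the replicate and bars for the mean ± SD of 3 arrays. The controls (blue) lie above the NICD1 arrays (red) for every gene in these deposited values, by a narrow gap of 0.21 for Cs and a wide gap of 1.35 for Sucla2, while quantile normalization of the arrays turned the difference of Idh2 to 0.08.

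At the entry of the cycle, citrate synthase showed the smallest change. Cs, which joins acetyl-CoA to oxaloacetate, stood at 9.22, 9.15 and 9.13 in control replicates 1 to 3 and at 8.79, 8.92 and 8.79 in NICD1. The groups did not overlap, but only 0.21 log2 separated the nearest arrays. Its difference was -0.34 (SE 0.10, 95% interval -0.55 to -0.12, adjusted p = 0.0244), which leaves 79.3% of the control level. This call was not kept when any control replicate was left out (adjusted p 0.0719, 0.0707 and 0.0567 without replicates 1, 2 and 3), nor without NICD1 replicate 1 (0.0615) or 3 (0.0575), although the difference stayed between -0.38 and -0.31 over all 6 omissions. Quantile normalization left a difference of -0.03 (adjusted p = 0.864).

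The isocitrate dehydrogenases were lower by different measured amounts. Idh3a, the catalytic subunit of the NAD-dependent enzyme of the cycle, read 9.28, 9.34 and 9.21 in controls and 8.71, 8.51 and 8.41 in NICD1, a difference of -0.73 (SE 0.11, adjusted p = 0.000709). Idh3b, a subunit that partners it, read 10.84, 10.87 and 10.80 in controls and 9.90, 10.04 and 9.88 in NICD1, a difference of -0.89 (SE 0.10, adjusted p = 0.0001). Both sets of arrays were well apart, with gaps of 0.51 and 0.76 log2, and quantile normalization left differences of -0.43 for Idh3a and -0.45 for Idh3b, both still called. Idh2, the mitochondrial NADP-dependent isozyme that supplies NADPH, read 9.90, 9.92 and 9.85 in controls and 9.50, 9.61 and 9.48 in NICD1. Its difference was -0.36 (SE 0.10, 95% interval -0.57 to -0.15, adjusted p = 0.0164) in the deposited values, but quantile normalization turned it to 0.08 (adjusted p = 0.592), and the call was lost without control replicate 2 (-0.35, adjusted p = 0.0649). Idh2 and Cs thus shared a small difference whose call depended on these choices, unlike the subunits of the NAD-dependent enzyme.

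The members from oxoglutarate to succinate had differences from -1.50 to -0.99. Whether they fell further than the isocitrate dehydrogenases was not tested. The interval of Suclg1 (-1.29 to -0.70) overlapped that of Idh3b (-1.11 to -0.67). Ogdh, the decarboxylating subunit of the oxoglutarate dehydrogenase complex, read 10.52, 10.56 and 10.39 in controls and 9.24, 9.22 and 9.42 in NICD1, a difference of -1.20 (SE 0.10, adjusted p = 2.63e-05), or -0.75 after quantile normalization. Sucla2, the subunit that makes succinyl-CoA ligase form ATP, read 9.19, 9.41 and 9.43 in controls and 7.85, 7.83 and 7.85 in NICD1, a difference of -1.50 (SE 0.10, adjusted p = 6.45e-06). Its NICD1 values lay within 0.02 log2 of each other, and 35.3% of the control level remained. Suclg1, the subunit shared by the ATP-forming and GTP-forming ligases, read 9.64, 9.67 and 9.56 in controls and 8.36, 8.81 and 8.72 in NICD1, a difference of -0.99 (SE 0.13, adjusted p = 0.000331), or -0.66 after quantile normalization. It was the least uniform member among the NICD1 arrays, which spanned 0.46 log2, with replicate 1 lowest.

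The last steps of the cycle were lower too. Fh1, fumarase, which hydrates fumarate to malate, read 9.39, 9.48 and 9.52 in controls and 8.23, 8.23 and 8.11 in NICD1. The difference was -1.27 (SE 0.10, 95% interval -1.49 to -1.05, adjusted p = 1.2e-05), which leaves 41.4% of the control level and a gap of 1.16 log2 between the nearest arrays. Mdh2, the mitochondrial malate dehydrogenase, read 10.56 on all 3 controls and 9.72, 9.67 and 9.66 in NICD1, a difference of -0.88 (SE 0.09, adjusted p = 7.61e-05), or -0.42 after quantile normalization. Mdh2 was thus nearly constant within each group, and 54.5% of the control level remained. The intervals of Fh1 and Cs did not overlap, and neither did those of Sucla2 (-1.74 to -1.27) and Mdh2 (-1.08 to -0.67). These pairs were picked after their values were seen and their differences were not tested.

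Among the NICD1 arrays, replicate 3 held the lowest value for 6 of the 9 members and replicate 2 the highest for 5. The mean level over the 9 genes was nevertheless 8.92, 8.98 and 8.92 in NICD1 replicates 1 to 3, against 9.84, 9.88 and 9.83 in controls. The median fall of the members was -0.93, -0.81 and -0.90 in the 3 NICD1 arrays, each set against the control mean. No single NICD1 array carried the result.

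The rest of the cycle was lower as well. Of 8 other cycle genes measured, all 8 fell, with a median difference of -1.22 and a range from -1.59 to -0.96. All 17 measured cycle genes were thus called lower in the deposited values, where 14.9% of all genes were. With the replicate number as a block 16 of the 17 were, without Cs (adjusted p = 0.0624), and after quantile normalization 15, without Cs and Idh2. The E3 subunit Dld, shared with pyruvate dehydrogenase, fell from 9.74 ± 0.12 to 8.15 ± 0.15 (-1.59, adjusted p = 8.81e-06), and Dlst, the succinyltransferase that works with Ogdh, from 9.41 ± 0.03 to 8.14 ± 0.10 (-1.26). The third subunit of the NAD-dependent isocitrate dehydrogenase, Idh3g, fell too (-1.10). Suclg2, which makes succinyl-CoA ligase form GTP, fell by 1.02, and its other probe set differed by -0.95. The succinate dehydrogenase subunits Sdhb (-1.55), Sdhc (-1.29), Sdha (-1.19) and Sdhd (-0.96), which stand between the ligase and fumarase, all fell. Of 4 factors that assemble succinate dehydrogenase, Sdhaf1, Sdhaf3 and Sdhaf4 fell by 0.73, 0.54 and 0.82, and Sdhaf2 differed by -0.27 (adjusted p = 0.116). The other probe set of Sdhaf4 differed by only -0.10, so its fall rests on 1 of its probe sets. The mean levels of Sdhaf4 (4.84 in controls, 4.01 in NICD1) and of Sdhaf3 in NICD1 (4.96) lie under every array median, 5.26 to 5.41. Without detection calls the sizes of both falls are uncertain. In the deposited values Cs and Idh2 had the 2 smallest of the 17 differences.

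**Figure D2:**
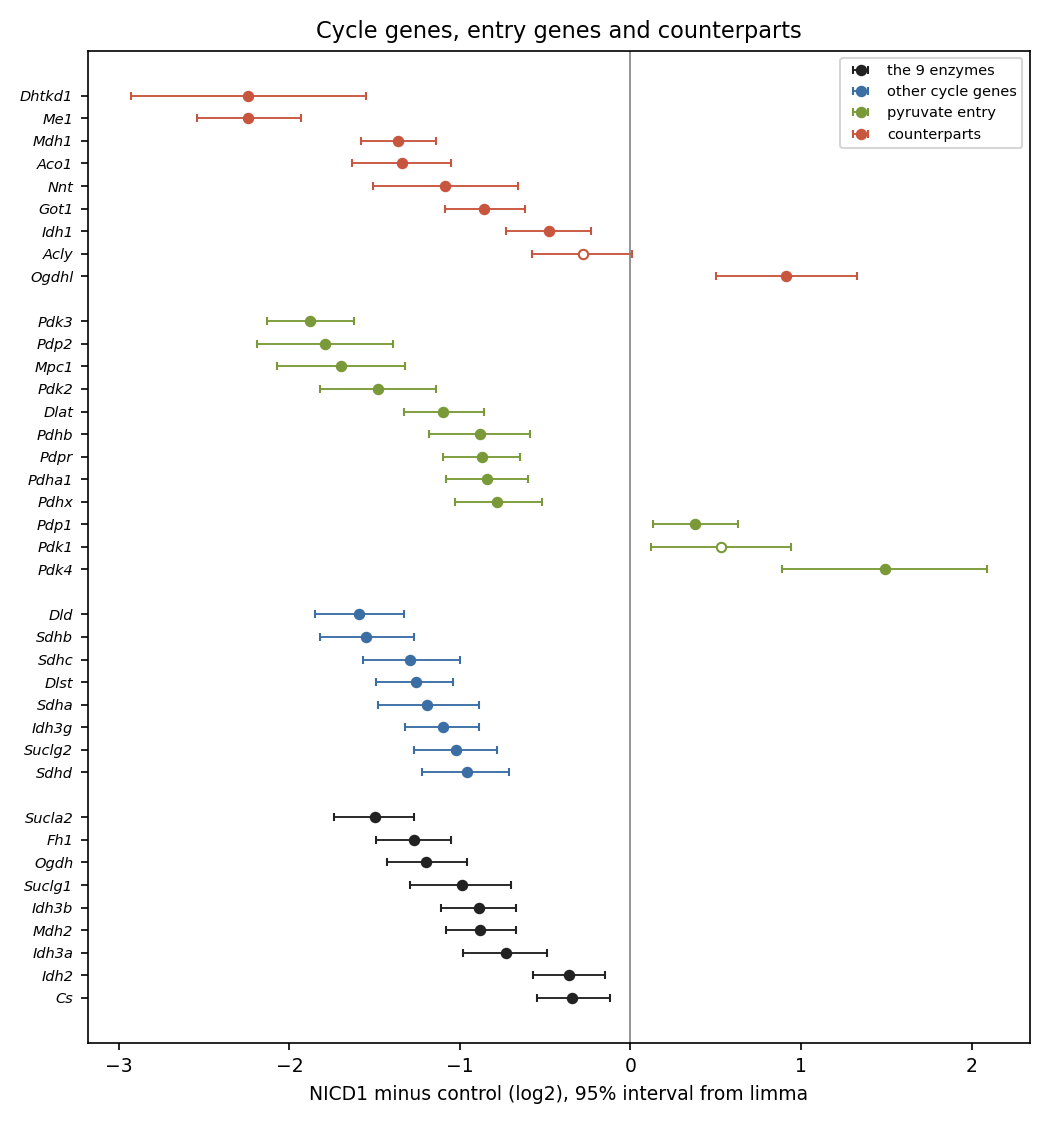
NICD1 minus control difference on the log2 scale with its 95% interval from limma (horizontal axis) for the 9 enzymes, the other cycle genes, pyruvate entry genes and counterparts and related enzymes (vertical axis, coloured by list). Filled points passed at adjusted p under 0.05 and open points did not; the 17 cycle genes lie left of 0 in the deposited values, from Dld at -1.59 to Cs at -0.34, with Idh2 turning to 0.08 under quantile normalization, while Pdk4 and Ogdhl lie to the right.

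Genes that feed the cycle were measured beside it. Of 12 measured genes of pyruvate entry, 9 fell, 2 rose and 1 did not pass, with a median difference of -0.88. The pyruvate dehydrogenase subunits Pdha1 (-0.84), Pdhb (-0.88), Dlat (-1.10) and Pdhx (-0.78) fell, with values beside those of Idh3b and Mdh2, and the pyruvate carrier subunit Mpc1 fell by 1.70. The kinases that switch off pyruvate dehydrogenase moved apart. Pdk4 rose by 1.49 (adjusted p = 0.00193), Pdk2 and Pdk3 fell by 1.48 and 1.88, and Pdk1 differed by 0.53 (adjusted p = 0.0506). The other gene that rose, the phosphatase Pdp1 (0.38), lost its call after centring (0.26) and after quantile normalization (0.31). Pdp2, a second phosphatase that reactivates the complex, fell by 1.79 (adjusted p = 5.27e-05), and Pdpr, a regulatory subunit of the phosphatase, by 0.87. Of 12 measured genes that fill or drain the cycle, 9 fell, 1 rose and 2 did not pass, with a median of -0.95. Pyruvate carboxylase (Pcx), which makes oxaloacetate, fell from 9.89 ± 0.05 to 6.95 ± 0.52 (-2.94, adjusted p = 1.08e-05), and the dicarboxylate carrier Slc25a10 fell by 2.49. Pck1, the cytosolic enzyme that withdraws oxaloacetate for glucose synthesis, fell by 2.49, with NICD1 values of 8.01, 10.14 and 9.40, while its mitochondrial counterpart Pck2 rose by 0.63. Glud1 and Got2, which exchange oxoglutarate with glutamate, fell by 0.52 and 0.59 in the deposited values and did not pass after quantile normalization (-0.06 and -0.17).

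Cytosolic counterparts of the cycle enzymes and related mitochondrial enzymes were listed together. Of 9 such genes measured, 7 fell, 1 rose and 1 did not pass. Cytosolic malate dehydrogenase Mdh1 fell from 11.37 ± 0.06 to 10.01 ± 0.08 (-1.36), cytosolic aconitase Aco1 by 1.34 and the cytosolic malic enzyme Me1 by 2.24. Got1, the cytosolic aspartate aminotransferase, fell by 0.86, or by 0.52 after quantile normalization. Nnt, the transhydrogenase of the inner mitochondrial membrane, fell by 1.09. Its controls were uneven, at 9.55, 8.78 and 9.42, against 8.31, 8.08 and 8.10 in NICD1. Idh1, the cytosolic and peroxisomal counterpart of Idh2, fell by 0.48 and likewise lost its call under quantile normalization (-0.08, adjusted p = 0.62). Ogdhl, a paralog of Ogdh, was the gene that rose, from 4.16 ± 0.21 to 5.07 ± 0.36 (0.91, adjusted p = 0.00391); both levels lie under the median of every array, 5.26 to 5.41, and without detection calls its size is uncertain. Dhtkd1, another paralog, which acts in lysine breakdown, fell by 2.24. Acly, which splits citrate in the cytosol, differed by -0.28 (adjusted p = 0.139).

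Unequal change within the cycle was examined in 9 pairs of genes as the log2 difference between both genes on the same array. A set of 3 against 3 arrays allows no exact p below 0.1, so no pair could pass, and the smallest value adjusted over the 9 pairs was 0.15. In 6 of the 9 pairs the groups did not overlap, each with p = 0.1 (two-sided exact permutation test). How often pairs of other genes separate the groups was not counted, so these pairs are not set apart from others. Of single genes, 19.7% had all NICD1 arrays below all controls and 23.7% above. The measured fall of Sucla2 was larger than that of its partner Suclg1. Sucla2 minus Suclg1 was -0.45, -0.25 and -0.13 in controls and -0.51, -0.98 and -0.87 in NICD1, a change of -0.51. The groups stayed apart by a small margin at control replicate 1 and NICD1 replicate 1. Sucla2 also changed by -0.48 relative to Suclg2, the GTP-forming subunit, with control values of -0.97, -0.93 and -0.96 and NICD1 values of -1.39, -1.36 and -1.55. Idh2 minus Idh3a went from 0.61 ± 0.03 to 0.98 ± 0.17 (n = 3, exact p = 0.1), the NAD-dependent enzyme having the larger measured fall. Idh3a minus Idh3g changed by 0.37 without overlap, whereas Idh3a minus Idh3b changed by 0.16 with overlapping groups (exact p = 0.2).

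The mitochondrial and cytosolic malate dehydrogenases were another pair without overlap. Mdh2 minus Mdh1 was -0.77, -0.89 and -0.78 in controls and -0.21, -0.42 and -0.36 in NICD1, a change of 0.48 with no overlap, the cytosolic isozyme having the larger measured fall. Idh2 minus Idh1 changed by 0.12 and its groups overlapped (exact p = 0.3). Ogdh minus Dlst, its partner in the complex, was 1.08 ± 0.11 in controls and 1.15 ± 0.05 in NICD1 (n = 3, exact p = 0.5), with overlapping groups. Ogdh minus Ogdhl changed by -2.11, a size as uncertain as the dim level of Ogdhl in both groups.

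**Figure D3:**
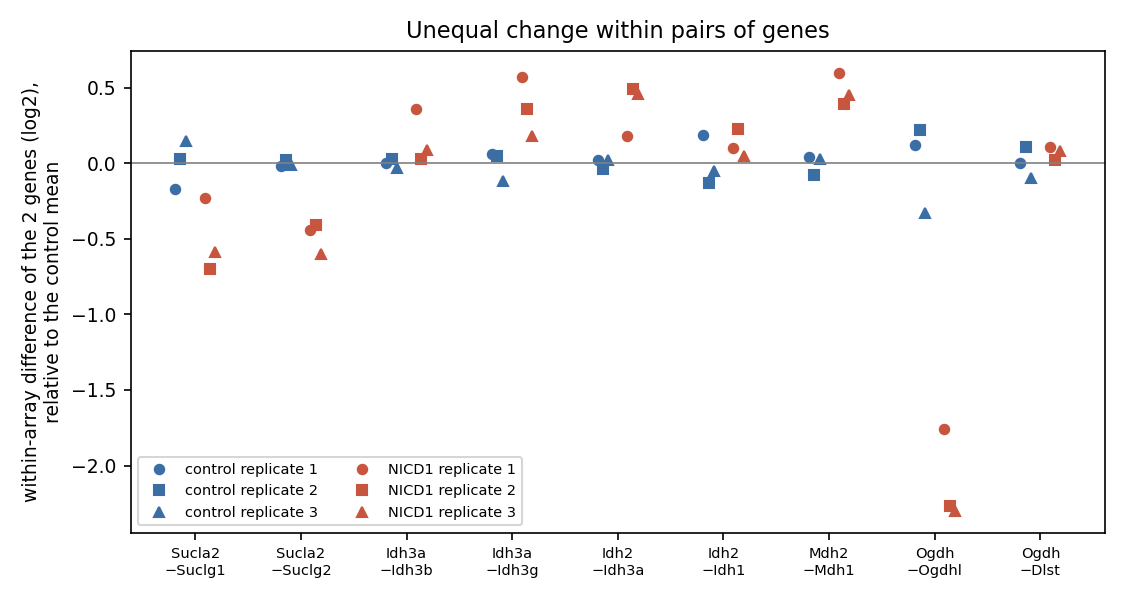
Within-array log2 difference between both genes of each pair, relative to its control mean (vertical axis), for the 9 pairs (horizontal axis), 1 point for each array. Ogdh against Ogdhl shows a change of -2.11, in which Ogdhl is dim in both groups, Mdh2 against Mdh1 of 0.48 and Ogdh against Dlst of 0.07, the last with overlapping groups.

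Genes of mitochondrial import and structure had a smaller median difference than the cycle enzymes in the deposited values. Of 19 measured, 13 fell, 0 rose and 6 did not pass, with a median of -0.55 against -0.89 for the 9 enzymes. After quantile normalization the medians were -0.36 and -0.45, and 10 fell and 1 rose, the scaffold protein Phb2 (from -0.12 to 0.26, adjusted p = 0.0491). The genes with the lowest p were the membrane protein Letm1 (-1.35), the fusion protein Mfn2 (-1.02), the chaperone Hspd1 (-1.15) and the cristae protein Immt (-0.85). The outer membrane channel Vdac1 fell by 0.84, while Vdac2 differed by -0.29 (adjusted p = 0.0553), turning to 0.19 after quantile normalization, and Tomm22 by -0.14 (adjusted p = 0.419). The difference between the lists was not tested.

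Many cell type markers differed between the groups as well, in both directions, where 14.9% of all genes were called lower and 17.8% higher. Of 17 measured proximal tubule markers, 17 fell; their mean level was 11.16 to 11.27 in controls and 6.95 to 8.04 in NICD1, a median difference of -4.26. Across the NICD1 arrays that mean ran from 6.95 in replicate 1 through 7.55 to 8.04 in replicate 3, a spread of 1.08. The mean of the 9 enzymes spread over 0.06, that of the other cycle genes over 0.04 and that of import and structure over 0.06. These lists fell by much less than the proximal tubule markers, so the spreads are not on a like footing, and their difference was not tested. Of 13 markers of the loop, distal tubule and collecting duct, 10 fell and 2 rose, with means of 8.60 to 8.74 in controls and 6.74 to 7.10 in NICD1. Of 11 macrophage and dendritic cell markers, 10 rose and 0 fell (means 5.05 to 5.24 and 6.97 to 7.69), and of 8 fibroblast markers 5 rose and 0 fell (6.43 to 6.68 and 7.02 to 7.78). Of 7 endothelial markers 4 fell and 0 rose (6.97 to 7.07 and 5.67 to 6.46), of 4 podocyte markers 2 fell and 1 rose (5.82 to 5.98 and 5.36 to 5.54), and of 6 lymphocyte markers 1 fell and 2 rose (3.78 to 3.87 and 3.91 to 4.09). Of the genes counted as risen here, Umod, a marker of the loop, lost its call after centring (adjusted p = 0.193) and under the block (0.0726), and the lymphocyte marker Cd3e lost it after quantile normalization (0.156), centring (0.197) and under the block (0.0926). The values have no detection calls, and no marker is listed at 0. The lymphocyte means lie under every array median, 5.26 to 5.41, and that list had a median difference of 0.05. Defining proximal tubule markers such as Slc34a1 (12.28 ± 0.06) and Lrp2 (11.82 ± 0.05) were bright in the controls. The part of these shifts in the fall of the cycle enzymes was not tested.

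**Figure D4:**
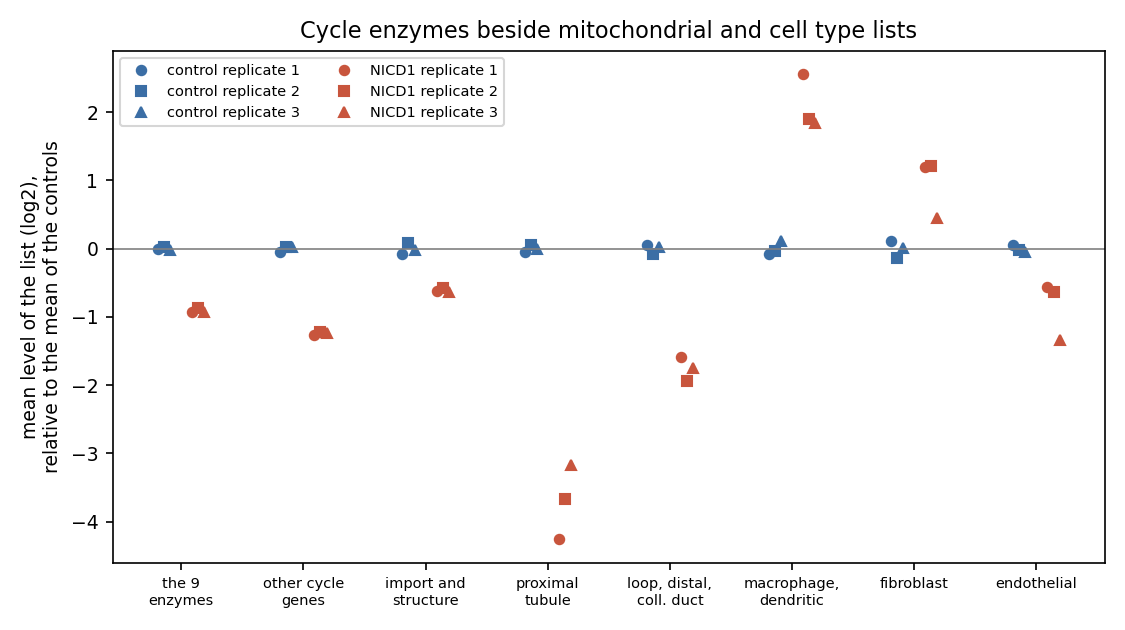
Mean log2 level of each list on each array, relative to the mean of the 3 controls (vertical axis), for the cycle enzymes and the mitochondrial and cell type lists (horizontal axis). The 3 NICD1 points of the 9 enzymes lie within 0.06 of each other, as do those of import and structure. Those of the proximal tubule markers, which fell further, are spread over 1.08, and the macrophage and dendritic cell points lie above the controls.

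The size of the falls depended on how the arrays were brought to a common scale. Both rescalings below were a second step on gene-level values already normalized with RMA, and the raw arrays were not processed again. Which scaling is nearer the truth was not tested. When arrays were centred on their medians, the median of all genes moved from 0.015 to -0.108. Centring made every member's difference larger in size, with a median of -1.02 and all 9 called lower, where 20.0% of genes were then called lower and 13.0% higher. The share of calls that were higher went from 54.4% to 39.4%. Quantile normalization acted the other way on bright genes: over the 844 genes in the members' range it shifted the difference by a median of 0.33. The median of those genes became 0.11 and the members' median -0.45. Under it 7 of the 9 members were called lower, where 15.1% of all genes were called lower and 18.0% higher. Cs was then at -0.03 (adjusted p = 0.864) and Idh2 at 0.08, while Sucla2 (-1.25), Fh1 (-0.99) and Ogdh (-0.75) kept the 3 largest differences.

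**Figure D5:**
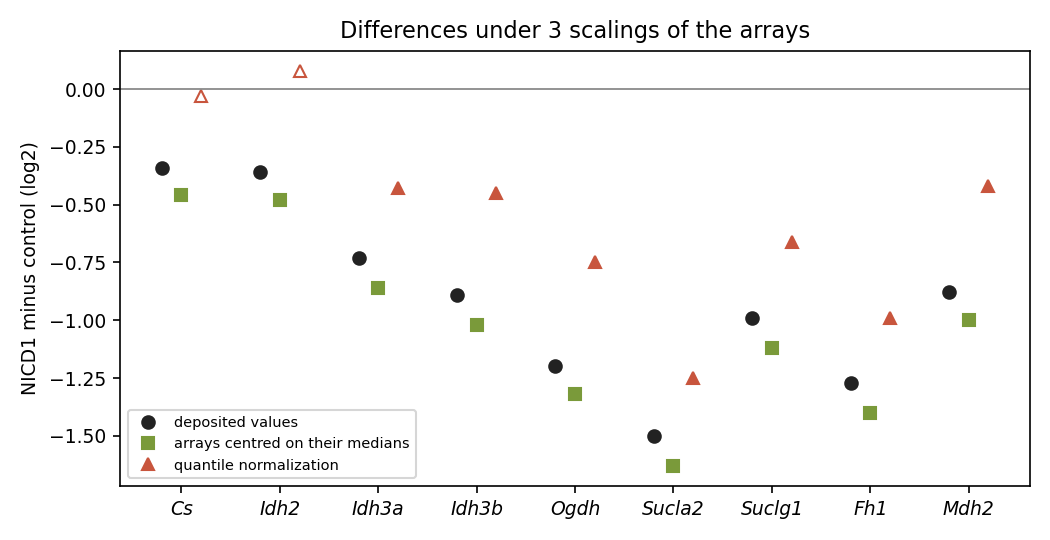
NICD1 minus control difference on the log2 scale (vertical axis) of the 9 enzymes (horizontal axis) with the deposited values, with arrays centred on their medians and with quantile normalization; filled points passed at adjusted p under 0.05. Sucla2 lies between -1.63 and -1.25 in all 3, whereas Cs (-0.03) and Idh2 (0.08) are near 0 and open under quantile normalization.

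The 5 genes outside the members whose values over the 6 arrays were nearest to the mean centred profile of the members, by root mean square difference, were Lonp1 (0.036 log2), Uqcrc2 (0.038), Acot10 (0.043), Glmp (0.044) and Lrpprc (0.046). Lonp1, a protease of the mitochondrial matrix, read 8.12, 8.23 and 8.22 in controls and 7.22, 7.31 and 7.27 in NICD1, and Uqcrc2, a core subunit of respiratory complex III, read 10.84, 10.84 and 10.85 in controls and 9.87, 9.91 and 9.84 in NICD1. Their differences, -0.92 and -0.97, sit beside those of Idh3b and Suclg1. Over 6 arrays in 2 groups this measure rests mainly on the size of the fall.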

How the data were processed

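Whole-kidney RNA of 6 samples was measured on 1 Affymetrix array each. Per the labels' protocols, the authors imported the raw array files into GeneSpring and normalized them with RMA16. The deposited values are log2 expression per probe set, from 1.40 to 13.67. The sources used here give no version of the software. Detection calls, scan dates and batches were not used. RMA compresses differences of dim genes and largely removes a shift shared by all genes.

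Of 34760 probe sets, 6573 numbered below the lowest annotated probe set were left out. Of the others, 21640 had 1 symbol, 1321 several and 5226 none in the platform annotation, which can be old. Each gene took its single-symbol probe set with the highest mean over the 6 arrays. Entrez identifiers matched a GRCm38.p6 gene table for 99.6% of genes, including all 9 enzymes. NICD1 and control were set against each other in a linear model (limma 3.58.1, R 4.3.3, two-sided, Benjamini-Hochberg over 19937 genes, threshold 0.05), checked on simulated arrays, and gene pairs with an exact permutation test. The number of arrays limits the precision. Array medians were 5.26 to 5.29 in controls and 5.38 to 5.41 in NICD1. Across genes, which are not independent replicates, arrays correlated at 0.991 to 0.994 within controls, 0.985 to 0.990 within NICD1 and 0.912 to 0.935 between groups.

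The members, lists and pairs were chosen with earlier results of these data known. The rule for named genes took all members, the other listed genes of the cycle, succinate dehydrogenase assembly, pyruvate entry, the filling and draining of the cycle and its counterparts, the 4 import and structure genes with the lowest p, and the 5 nearest profiles, and not all of these are printed. Cell type markers could be named from their lists. Vdac1, Vdac2, Tomm22 and Phb2 were named after their values were seen. Listed genes without a single-symbol probe set were not analysed here. The motifs were chosen after the sequences were seen. Results were recomputed with quantile normalization, median centring, averaged probe sets, array weights, a robust trended variance, a filter that drops the dimmest 40%, a threshold of 0.01, a minimum of 2-fold, a block for the replicate number, and each array left out.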

Additional observations from a re-analysis of the deposited data

How the results depend on the processing

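Idh3a, Idh3b, Ogdh, Sucla2, Suclg1, Fh1 and Mdh2 kept their direction and stayed past the threshold under all 14 alternatives run for each, with differences between -1.63 and -0.42. Idh2 reversed to 0.08 under quantile normalization, which raises bright genes of the NICD1 arrays. Of the 9 members, 7 were called lower under quantile normalization, where 15.1% of all genes were. At a threshold of 0.01, 7 were called lower, among 4586 genes called in either direction. With each array left out, 7 to 9 were called lower. The share of all genes called lower was not counted at this threshold or for the omissions. Requiring a 2-fold change left 3 members and 1984 of all 6529 called genes. The 8 other measured cycle genes were called lower under all alternatives but the 2-fold minimum, which left 7. Leaving out each array gave 5275 to 6278 genes called in either direction and 6 to 8 pairs without overlap. Quantile normalization, added for the pairs after the data were seen, gave 7 pairs.

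Samples with the same replicate number did not deviate together (correlations of deviations over genes of -0.07, -0.01 and -0.07). This gave no sign that the numbers pair them, but 3 arrays per group cannot exclude it. With the replicate number as a block, 8 members and 8 other cycle genes were called lower, among 5981 genes called in either direction. How many of those 5981 were lower was not counted. Cs (-0.34, adjusted p = 0.0624) was the member not called under the block. Signal over background could not be judged without detection calls.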
